A study of Mus musculus with 8 samples.

Results

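The Cyp2d genes of the mouse and Cyp2e1 encode microsomal cytochrome P450 enzymes of the liver. Of the 10 symbols chosen by name (Cyp2d9, Cyp2d10, Cyp2d11, Cyp2d12, Cyp2d13, Cyp2d22, Cyp2d26, Cyp2d34, Cyp2d40 and Cyp2e1), 9 were matched to a row among the 46517 genes of the deposited count table, and Cyp2d13 was not analysed here. The 9 genes were described in whole liver RNA from 4 MøFoxO1-KO mice (FoxO1 loxP/loxP with Lyz2-Cre) and 4 WT littermates (FoxO1 loxP/loxP without Cre), so that the floxed allele was shared by both groups. All 8 animals were male C57BL/6 mice that received a diet inducing nonalcoholic steatohepatitis (NASH) for 25 weeks from 6 weeks of age, and their livers were collected at 31 weeks after a fast of 16 hours. Cre is made from the promoter of Lyz2, a gene of macrophages, monocytes and neutrophils, so it is not directed at hepatocytes, which carry most P450 transcripts of the liver. RNA-Seq of polyadenylated RNA was used to ask how the liver transcriptome of MøFoxO1-KO mice differed from that of WT littermates on this diet.

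P450 enzymes sit in the membrane of the endoplasmic reticulum, bind heme, and oxidize substrates with electrons that P450 oxidoreductase (Por) and cytochrome b5 (Cyb5a) hand over from NADPH. Humans keep a single active CYP2D gene, CYP2D6, which oxidizes many prescribed drugs, whereas the mouse has a cluster of Cyp2d paralogs, of which Cyp2d9 is a steroid hydroxylase more abundant in male than in female liver. Cyp2e1 is a single gene that oxidizes ethanol, acetaminophen and other small molecules, is made by hepatocytes around the central vein, and produces reactive oxygen species, for which it is studied in alcoholic and nonalcoholic steatohepatitis.

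Total counts per mouse lay between 15253218 and 18025481. Normalized counts are counts divided by the library size after edgeR's TMM scaling, at the mean library size of the 8 mice. For the 13278 genes that passed a filter on low counts, edgeR's quasi-likelihood test compared the genotypes, and a gene was called at a Benjamini-Hochberg adjusted P under 0.05 with an absolute log2 fold change over 1.5. By this rule 25 genes were called (0.188%), and leaving out each mouse in turn gave between 3 calls, when WT mouse 25 was dropped, and 82, when MøFoxO1-KO mouse 28 was dropped. Foxo1, on chromosome 3 from 52268336 to 52353221, was counted 422, 467, 328 and 461 times in the WT mice (replicates 22 to 25) and 448, 253, 438 and 259 times in the MøFoxO1-KO mice (replicates 26 to 29), and its groups overlapped (log2 fold change -0.17, standard error 0.18, edgeR adjusted P = 0.686). Whole liver holds the Foxo1 transcripts of all its cell types, so that deletion in myeloid cells was not checked by these values. The hepatocyte marker Alb had 858833 ± 181578 normalized counts in WT livers and 981625 ± 152505 in MøFoxO1-KO livers (SD, n = 4 each), the transcript of the main protein that hepatocytes secrete.

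Levels of the 9 genes were compared with each other as TPM, which divides counts by the exon length of each gene and brings every mouse to the same sum. Cyp2e1, on chromosome 7 from 140763739 to 140774975, stood far above the rest at 14067 ± 1651 TPM in WT livers and 12430 ± 1405 TPM in MøFoxO1-KO livers, and ranked 12 among all rows of the table by mean TPM over the 8 mice. Cyp2d9 followed at 2139 ± 247 TPM in WT and 2603 ± 241 TPM in MøFoxO1-KO livers (rank 50). Cyp2d10 had 1419 ± 134 and 1759 ± 119 TPM (rank 70). Below these came Cyp2d26 at 1195 ± 189 and 1130 ± 84.7 TPM (rank 95), an enzyme of the same subfamily that is encoded at the far end of the cluster. Cyp2d22 had 346 ± 77.7 and 285 ± 115 TPM, and Cyp2d40 had 99.8 ± 24.1 and 140 ± 33.5 TPM. The remaining 3 paralogs were at the bottom of the range, with mean TPM in WT and MøFoxO1-KO livers of 1.81 and 1.78 for Cyp2d12, 0.409 and 0.891 for Cyp2d11, and 0.112 and 0.0649 for Cyp2d34. In WT livers Cyp2d10 (1220 to 1506 TPM) and Cyp2d26 (979 to 1384 TPM) overlapped and could not be ordered beyond their spread, whereas in MøFoxO1-KO livers they did not overlap (1593 to 1876 TPM against 1049 to 1221 TPM). Cyp2d22 and Cyp2d40 did not overlap in WT livers (252 to 441 against 80.7 to 135 TPM) but did in MøFoxO1-KO livers (155 to 389 against 118 to 189 TPM). The other neighbours in this order did not overlap in either group of 4 mice. For Cyp2d11 and Cyp2d34 this rested on few reads. WT replicate 22 had 4 counts of each (0.295 and 0.289 TPM), so their order in WT livers is not established.

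**Figure D1:**
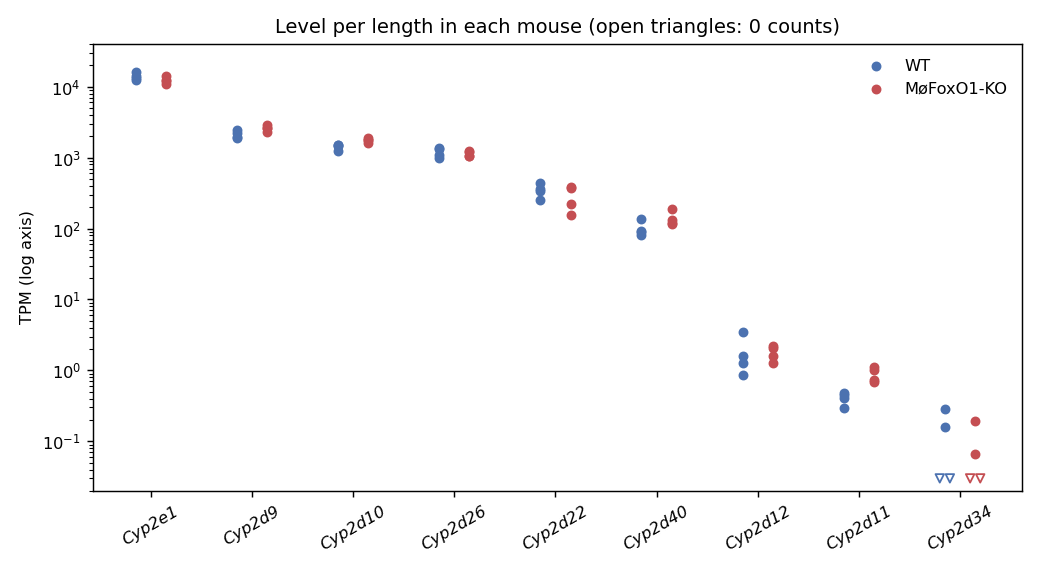
Level of each of the 9 genes in TPM on a log axis, 1 point per mouse, with WT littermates and MøFoxO1-KO mice side by side; open triangles at the bottom mark mice with 0 counts. Cyp2e1 sits at 10865 TPM or more in each mouse, Cyp2d9, Cyp2d10 and Cyp2d26 between 979 and 2887 TPM, and Cyp2d12, Cyp2d11 and Cyp2d34 at 3.47 TPM or less.

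The 8 Cyp2d genes lie together on chromosome 15 of GRCm38, between 82370528 (Cyp2d22) and 82794245 (Cyp2d26), and Cyp2d9 and Cyp2d12 are read from the plus strand while the other 6 are read from the minus strand. Their transcripts are close copies of each other, which bears on any count of reads per gene. In GENCODE M21, the transcript of Cyp2d9 was 91.6% identical to that of Cyp2d10 and 93.4% to that of Cyp2d11, and Cyp2d10 and Cyp2d11 were 94.2% identical. Cyp2d12 was 91.4%, Cyp2d40 83.4%, Cyp2d26 79.6% and Cyp2d22 75.6% identical to Cyp2d9. A stretch of 50 bases was found unchanged in the transcripts of another gene for 40.5% of positions in Cyp2d10, 37.2% in Cyp2d11, 29% in Cyp2d9 and 24.1% in Cyp2d40, against 10.5% in Cyp2d26, 6.14% in Cyp2d22 and 4.82% in Cyp2e1. Over 100 bases the shares were 14.8% for Cyp2d10, 12.2% for Cyp2d11, 9.86% for Cyp2d9 and 0.0% for Cyp2d40. How reads that match several genes were counted is not given in the sources used here, so counts of Cyp2d9, Cyp2d10, Cyp2d11 and Cyp2d12 are uncertain to the extent that reads could be split or dropped between them.

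Promoters of 6 of the 9 genes were present among the RefSeq promoters of GRCm38.p6 (Cyp2e1, Cyp2d9, Cyp2d10, Cyp2d11, Cyp2d26 and Cyp2d40). The bases before the start of the 5 Cyp2d genes are shown, 5′ to 3′ on the strand of the gene, so that the 4 genes with an unadjusted P under 0.05 in the comparison of genotypes can be set beside Cyp2d26. They are the 120 bases before the RefSeq start, or the 59 of these that lie outside the gene of the count table for Cyp2d40, whose RefSeq start is 61 bases inside it. Capitals mark CACTCCTTTATAAGG, the longest run shared by Cyp2d9, Cyp2d10, Cyp2d11 and Cyp2d40 (15 bases), which was looked for after the values of the genes had been seen.
Cyp2d9 (chr15:82452257-82452376, plus strand): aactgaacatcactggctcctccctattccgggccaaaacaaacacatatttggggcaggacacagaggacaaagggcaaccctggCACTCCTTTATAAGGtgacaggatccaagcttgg
Cyp2d10 (chr15:82407195-82407314, minus strand): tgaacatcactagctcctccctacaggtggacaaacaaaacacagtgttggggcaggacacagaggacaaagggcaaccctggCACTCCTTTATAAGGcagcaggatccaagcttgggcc
Cyp2d11 (chr15:82394023-82394142, minus strand): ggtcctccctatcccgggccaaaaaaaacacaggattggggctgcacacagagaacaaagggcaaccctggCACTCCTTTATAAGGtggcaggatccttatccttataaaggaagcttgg
Cyp2d40 (chr15:82764184-82764242, minus strand): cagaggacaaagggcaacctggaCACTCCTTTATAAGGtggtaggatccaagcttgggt
Cyp2d26 (chr15:82794246-82794365, minus strand): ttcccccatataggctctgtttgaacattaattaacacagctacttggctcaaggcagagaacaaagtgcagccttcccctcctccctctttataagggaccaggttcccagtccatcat
The 15 bases occurred in 4 of 32851 RefSeq promoters of 300 bases (0.0122%), those of Cyp2d9, Cyp2d10, Cyp2d11 and Cyp2d40, which carry them because the run was defined on these 4 close copies. Cyp2d12, Cyp2d22 and Cyp2d34 had no promoter in the reference, so whether they carry the run is not known. Of the 5 Cyp2d promoters, only that of Cyp2d26 was seen to lack it, and the promoter of Cyp2e1 lacked it too. The 4 genes were picked by their P in these data, and a link between the run and their values was not tested. The 15 bases began 34, 37 and 49 bases before the RefSeq start of Cyp2d9, Cyp2d10 and Cyp2d11, and 97 bases before that of Cyp2d40, which is 36 bases before the gene of the count table. The last 10 of them, CTTTATAAGG, were also present in Cyp2d26, 32 bases before its RefSeq start, and in 32 promoters in all (0.0974%). The run holds TTTATA, the reverse complement of the TATA motif TATAAA, which was found on either strand in 6 of 6 promoters of these genes and in 13.6% of all promoters. In Cyp2e1 the motif read TATAAA on the strand of the gene, 31 bases before the RefSeq start. On either strand, the HNF1 motif, the DR1 motif (a direct repeat bound by nuclear receptors), TTCNNNGAA (STAT) and TTGCGCAA (C/EBP) were in 0 of 6 of these windows and in 0.0609, 0.0396, 8.3 and 0.183% of all promoters. Of the 250 bases before the start of Cyp2d9, 87.6% were identical in Cyp2d11, 83.6% in Cyp2d10, 60.0% in Cyp2d40, 49.2% in Cyp2d26 and 44.8% in Cyp2e1. Bases left unaligned count as different here, whereas the transcript identities above were taken over aligned bases only. For Cyp2d40, whose RefSeq start is 61 bases inside the gene of the count table, 150 of 187 aligned bases were identical to Cyp2d9.

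The most abundant paralogs, Cyp2d9 and Cyp2d10, had 1.51 and 1.53 times as many normalized counts in MøFoxO1-KO livers as in WT livers, and neither passed the adjusted test. Cyp2d9 (ENSMUSG00000068086, chromosome 15 from 82452377 to 82456827) had 25121, 30466, 23538 and 30586 normalized counts in the WT mice (replicates 22 to 25), and 39515, 49388, 38264 and 38399 in the MøFoxO1-KO mice (replicates 26 to 29). Each MøFoxO1-KO mouse was above each WT mouse, with replicate 27 well above the other 3. The means were 27428 ± 3636 and 41392 ± 5360 (SD, n = 4; exact permutation test, P = 0.0286, the smallest that 4 against 4 allow). On the log2 scale this was a fold change of 0.59, standard error 0.15, at an adjusted P of 0.127 by edgeR. Cyp2d10 (ENSMUSG00000094806, 82402846 to 82407194) had 19464, 15127, 17435 and 20703 normalized counts in the WT mice, and 28122, 30492, 26146 and 26544 in the MøFoxO1-KO mice. The groups of Cyp2d10 did not overlap either, and its lowest MøFoxO1-KO value was 1.26 times its highest WT value. Its means were 18182 ± 2442 and 27826 ± 1971 (SD, n = 4; exact permutation test, P = 0.0286), with a log2 fold change of 0.61 and a standard error of 0.14 (edgeR, P = 0.00128, adjusted P = 0.102). When each mouse was left out in turn, log2 fold changes lay between 0.51 and 0.65 for Cyp2d9 and between 0.54 and 0.68 for Cyp2d10. In TPM the Cyp2d9 groups overlapped, since WT replicate 23 (2450 TPM) was above MøFoxO1-KO replicate 29 (2299 TPM), whereas those of Cyp2d10 remained apart.

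**Figure D2:**
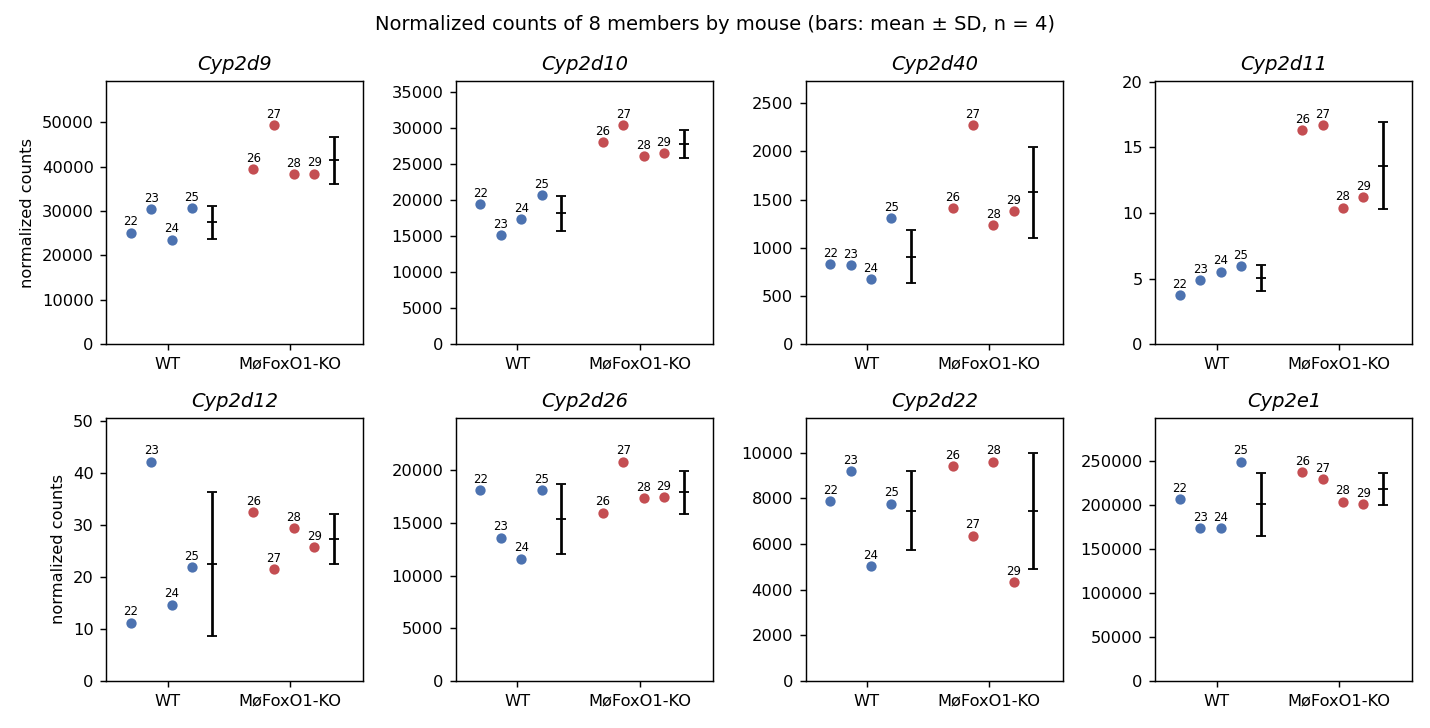
Normalized counts (TMM scaling) of the 8 genes that passed the filter, 1 panel per gene with its own linear axis from 0; points are mice marked by replicate number, and bars are the mean ± SD (n = 4). MøFoxO1-KO mice lie above all WT mice for Cyp2d9, Cyp2d10 and Cyp2d11, and the groups overlap for Cyp2d40, Cyp2d12, Cyp2d26, Cyp2d22 and Cyp2e1.

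Cyp2d40 and Cyp2d11, less abundant members of the cluster, had larger fold changes on fewer counts. Cyp2d40 (ENSMUSG00000068083, 82759835 to 82764183) had 829.1, 819, 676 and 1308 normalized counts in the WT mice and 1416, 2275, 1236 and 1383 in the MøFoxO1-KO mice. The groups overlapped at a single point, since WT replicate 25 was above MøFoxO1-KO replicate 28. The means were 908 ± 276 and 1577 ± 472 (SD, n = 4; exact permutation test, P = 0.0571), with a log2 fold change of 0.80, a standard error of 0.24 and an adjusted P of 0.169 by edgeR. Leaving out each mouse in turn moved the Cyp2d40 log2 fold change between 0.58 and 1.02.

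Cyp2d11 (ENSMUSG00000068085, 82389154 to 82394022) had 4, 5, 6 and 6 counts in the WT mice and 17, 14, 11 and 10 counts in the MøFoxO1-KO mice, without normalization. The groups did not overlap, and the gene passed the filter on low counts only through its MøFoxO1-KO counts. Normalized counts were 5.03 ± 0.965 and 13.6 ± 3.3 (SD, n = 4; exact permutation test, P = 0.0286), with a log2 fold change of 1.41, a standard error of 0.39 and an adjusted P of 0.139 by edgeR. Because Cyp2d11 shares long stretches with Cyp2d9 and Cyp2d10, its counts were also set against theirs. Per 100000 counts of Cyp2d9 and Cyp2d10, Cyp2d11 had 11.1 ± 2.12 counts in WT livers and 19.6 ± 3.6 in MøFoxO1-KO livers (SD, n = 4), and the lowest MøFoxO1-KO value (16.17) was above the highest WT value (13.49). Whether these few reads came from Cyp2d11 or from its abundant copies was not tested.

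The other Cyp2d genes did not separate the groups. Cyp2d26 (ENSMUSG00000022445, 82790107 to 82794245) had 18144, 13595, 11613 and 18133 normalized counts in the WT mice and 15967, 20813, 17356 and 17459 in the MøFoxO1-KO mice. The MøFoxO1-KO values lay inside the WT range except for replicate 27, which was above it. Its means were 15371 ± 3296 and 17899 ± 2059 (SD, n = 4; exact permutation test, P = 0.286), and edgeR gave a log2 fold change of 0.22 ± 0.17 (standard error) at an adjusted P of 0.568. Cyp2d22 (ENSMUSG00000061740, 82370528 to 82380260), the paralog at the other end of the cluster, had 7883, 9201, 5033 and 7773 normalized counts in the WT mice and 9421, 6369, 9617 and 4337 in the MøFoxO1-KO mice. In the MøFoxO1-KO mice replicates 26 and 28 were high and replicates 27 and 29 were low, whereas Cyp2d9 had its highest value in replicate 27. Mean Cyp2d22 levels were 7472 ± 1751 and 7436 ± 2546 normalized counts (SD, n = 4), and edgeR gave a log2 fold change of -0.01 ± 0.27 (standard error) at an adjusted P of 0.993. Cyp2d12 (ENSMUSG00000096852, 82555108 to 82559413) had 12, 43, 16 and 22 counts in the WT mice and 34, 18, 31 and 23 counts in the MøFoxO1-KO mice. WT replicate 23 held the highest and WT replicate 22 the lowest of these values, and edgeR gave a log2 fold change of 0.28 ± 0.42 (standard error) at an adjusted P of 0.775. Leaving out WT replicate 23 raised it to 0.78. Cyp2d34 (ENSMUSG00000094559, 82615965 to 82620907) had 4, 0, 2 and 0 counts in the WT mice and 3, 0, 1 and 0 counts in the MøFoxO1-KO mice, did not pass the filter and was given no fold change.

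Cyp2e1 (ENSMUSG00000025479) ranked 1 among the P450 genes of the table by mean TPM, followed by Cyp2d9, and its level was not separated by genotype. It had 206576, 173323, 173200 and 249125 normalized counts in the WT mice and 237181, 229235, 203622 and 200816 in the MøFoxO1-KO mice. All MøFoxO1-KO values lay within the WT range. The means were 200556 ± 35987 and 217713 ± 18220 (SD, n = 4; exact permutation test, P = 0.4), with a log2 fold change of 0.12, a standard error of 0.17 and an adjusted P of 0.769 by edgeR. Cyp2e1 held 1.29 ± 0.216% of all counts in WT livers and 1.26 ± 0.0937% in MøFoxO1-KO livers (SD, n = 4). Its direction depended on the scale, with a ratio of MøFoxO1-KO to WT means of 1.09 for normalized counts, 0.976 for CPM (counts scaled to the library total) and 0.884 for TPM.

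Of the 8 genes tested, 0 were called by edgeR, where 0.188% of all tested genes were called (0.0527% higher and 0.136% lower), and 0 had an adjusted P under 0.05, where 0.294% of all tested genes did. At an unadjusted P under 0.05, 4 of the 8 were higher in MøFoxO1-KO livers (Cyp2d9, Cyp2d10, Cyp2d11 and Cyp2d40), against 8.65% of all tested genes, and 0 were lower, against 8.06%. In 3 of the 8 each MøFoxO1-KO mouse was above each WT mouse, against 5.0% of all tested genes, and in 0 was each below, against 4.71%. By sign alone 7 of the 8 were higher, against 48.3% of all tested genes. The median log2 fold change of the 8 was 0.44, beside -0.014 over all tested genes. These counts include Cyp2d11, which had passed the filter only through the group in which it was high. Without it, 3 of 7 genes were higher at an unadjusted P under 0.05, 2 of 7 did not overlap, 6 of 7 were higher by sign, and the median was 0.28. These signs are those of the edgeR fit with TMM scaling. In TPM, ratios of MøFoxO1-KO to WT means were under 1 for Cyp2d12 (0.983), Cyp2d22 (0.822), Cyp2d26 (0.945) and Cyp2e1 (0.884). The share of all genes higher in TPM was not counted. The Wald test of DESeq2 gave an adjusted P under 0.05 to 3 of the 8, namely Cyp2d9 (adjusted P = 0.00332), Cyp2d10 (adjusted P = 0.000368) and Cyp2d40 (adjusted P = 0.0409), where 2.58% of all genes passed in this direction, and none of the 3 reached the limit of 1.5 on the log2 fold change. Scaling to total counts in place of TMM moved the median log2 fold change of all tested genes by -0.154. The log2 fold changes were then 0.44 for Cyp2d9, 0.45 for Cyp2d10, 1.26 for Cyp2d11 and 0.64 for Cyp2d40, lower by about the shift of all genes.

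**Figure D3:**
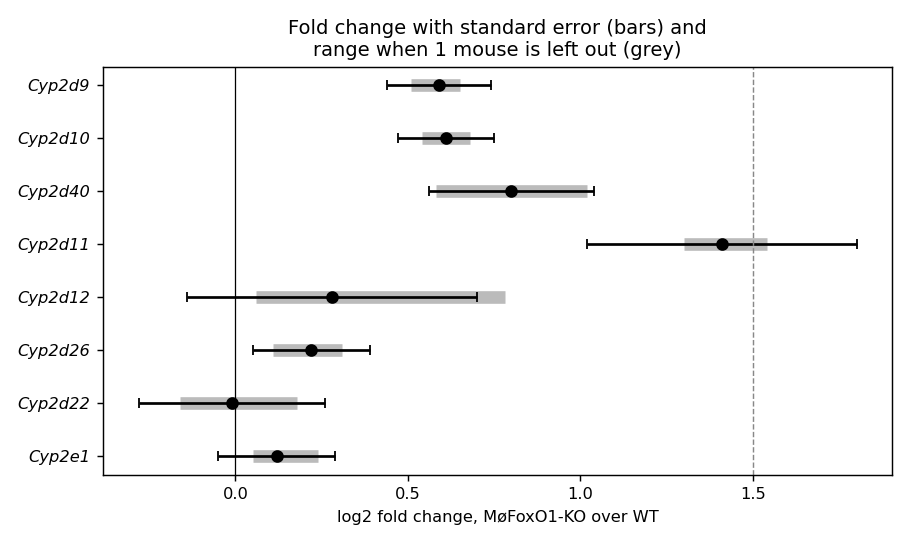
Log2 fold change (MøFoxO1-KO over WT, edgeR) of the 8 tested genes; black bars are standard errors, grey bars the range when 1 mouse is left out, the solid line marks 0 and the dashed line the limit of 1.5 for a call. Cyp2d9, Cyp2d10, Cyp2d40 and Cyp2d11 lie between 0.59 and 1.41 with grey bars above 0, and Cyp2d22 lies at -0.01.

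The Cyp2d genes were also added up, since the sum is not changed by reads exchanged among these 8 genes, although reads that were dropped or counted on the Cyp2d pseudogenes are missing from it. The 8 genes together had 71459, 69255, 58317 and 78531 normalized counts in the WT mice and 94492, 109375, 92659 and 88159 in the MøFoxO1-KO mice. Each MøFoxO1-KO sum was above each WT sum, with means of 69391 ± 8376 and 96172 ± 9196 (SD, n = 4), a ratio of 1.39. As a share of all counts, without TMM scaling, the sum was 0.445 ± 0.0381% in WT and 0.555 ± 0.0412% in MøFoxO1-KO livers, again without overlap (0.4105 to 0.4932% against 0.5033 to 0.6017%). In TPM the groups overlapped for the sum, since MøFoxO1-KO replicate 29 was below WT replicate 25. Ratios of MøFoxO1-KO to WT mean TPM were 1.22 for Cyp2d9, 1.24 for Cyp2d10, 1.4 for Cyp2d40, 0.945 for Cyp2d26 and 0.822 for Cyp2d22. Within the sum, Cyp2d9 made up 39.6 ± 3.65% of the counts in WT and 43.0 ± 1.76% in MøFoxO1-KO livers, and Cyp2d10 made up 26.3 ± 3.35% and 29 ± 1.11%. Cyp2d26 made up 22 ± 2.75% and 18.6 ± 1.23%, Cyp2d22 10.7 ± 1.98% and 7.77 ± 2.8%, and Cyp2d40 1.29 ± 0.25% and 1.62 ± 0.322%. For each of these 5 genes the shares overlapped between groups, and per kilobase of exon the share of Cyp2d26 no longer did (22.9 and 19.1%, lower in MøFoxO1-KO livers).

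**Figure D4:**
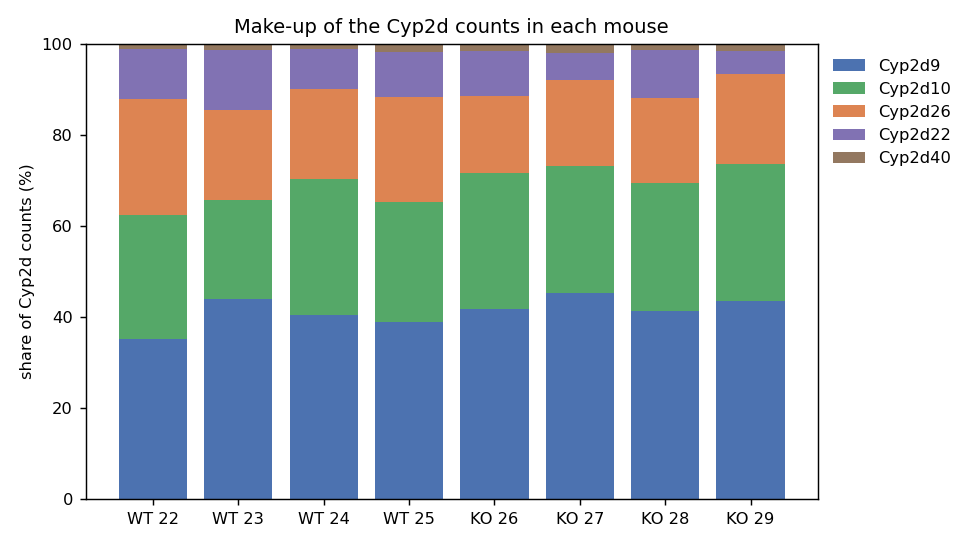
Share of the Cyp2d counts in percent held by Cyp2d9, Cyp2d10, Cyp2d26, Cyp2d22 and Cyp2d40, stacked from the bottom for each of the 8 mice (WT replicates 22 to 25, KO replicates 26 to 29). Cyp2d9 is the largest part of each bar, from 35.2% in WT replicate 22 to 45.2% in MøFoxO1-KO replicate 27, and the shares of the groups overlap.

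Ratios between genes within a mouse do not depend on scaling between libraries. Among the 6 genes with at least 100 counts in each mouse, 15 ratios were formed, and 2 of them did not overlap between groups. The ratios share genes and are not independent, and single genes did not overlap in 5.0% (MøFoxO1-KO above) and 4.71% (below) of all tested genes, so the count of 2 is given as a description. Cyp2d10 over Cyp2e1 was 0.0942, 0.0873, 0.101 and 0.0831 in WT replicates 22 to 25 and 0.119, 0.133, 0.128 and 0.132 in MøFoxO1-KO replicates 26 to 29, a difference of 0.49 on the log2 scale. Cyp2d40 over Cyp2e1 was 0.0039 to 0.00525 in WT livers and 0.00597 to 0.00992 in MøFoxO1-KO livers, a difference of 0.67. In both ratios all MøFoxO1-KO mice were above all WT mice. Cyp2d9 over Cyp2e1 had means of 0.139 and 0.19 and overlapped. Cyp2d9 over Cyp2d10, the pair of abundant near-copies, had means of 1.53 ± 0.33 and 1.48 ± 0.0939 (SD, n = 4), a log2 difference of -0.03.

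Rows around the Cyp2d genes were examined within 250 kilobases of the cluster. Of 34 other rows 12 were tested, of which 8 were higher and 4 lower by sign in MøFoxO1-KO livers, with 4 at an unadjusted P under 0.05 (all higher, against 8.65% of all tested genes), 0 at an adjusted P under 0.05, and a median log2 fold change of 0.30. These rows include Cyp2d37-ps, Cyp2d41-ps and Gm27463, which lie inside the cluster, Gm27463 within the RefSeq model of Cyp2d13. Of the 4 rows at an unadjusted P under 0.05, Cyp2d37-ps and Gm27463 lie inside the cluster and Smdt1 and Nfam1 (log2 fold change 1.1) outside it. All 4 rows that were lower by sign lie outside it. The pseudogene Cyp2d37-ps, between Cyp2d34 and Cyp2d40, was counted 560, 329, 830 and 710 times in the WT mice and 632, 970, 1178 and 665 times in the MøFoxO1-KO mice, with overlapping groups (log2 fold change 0.64, edgeR adjusted P = 0.29). The pseudogene Cyp2d41-ps, between Cyp2d40 and Cyp2d26, had a log2 fold change of 0.50 (edgeR adjusted P = 0.365). Just outside the cluster, Smdt1, a subunit of the mitochondrial calcium uniporter, had a log2 fold change of 0.46, and Ndufa6, a subunit of respiratory complex I, had 0.37, with adjusted P values of 0.177 and 0.369 by edgeR. Around Cyp2e1, 12 of 27 rows were tested, and 10 were higher by sign, against 48.3% of all tested genes (median log2 fold change 0.36). At an unadjusted P under 0.05 by edgeR, 3 were higher, against 8.65% of all tested genes, and 0 were lower, against 8.06%. The most abundant of the 12 rows, Ifitm3, an interferon-induced membrane protein, had a log2 fold change of 0.66 (edgeR adjusted P = 0.052), and Nlrp6, an inflammasome sensor, 0.46, beside 0.12 for Cyp2e1.

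**Figure D5:**
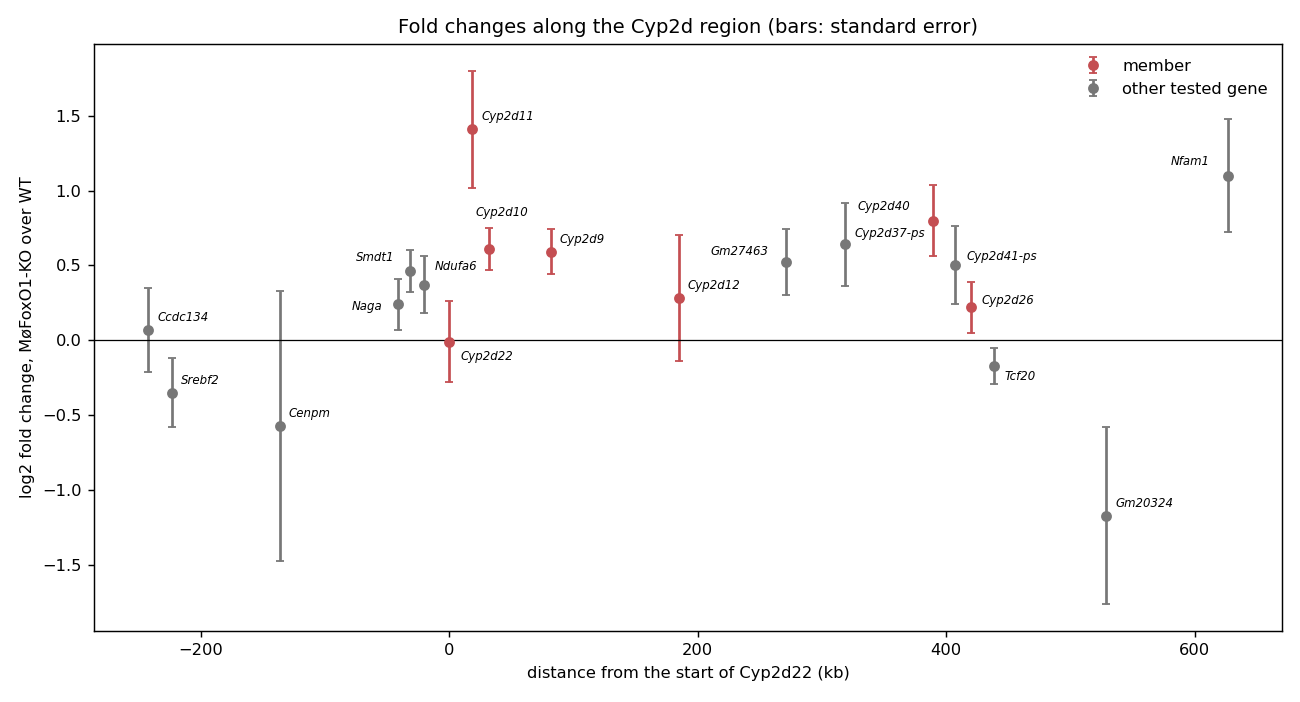
Log2 fold change (MøFoxO1-KO over WT, edgeR) with its standard error for each tested row of the Cyp2d region against the distance of its start from that of Cyp2d22 in kilobases; red, Cyp2d genes described here; grey, other tested genes. Cyp2d22 (-0.01) and Cyp2d26 (0.22) at the ends lie below Cyp2d10, Cyp2d9 and Cyp2d40 between them.

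The partners of these enzymes were read from lists. Of 7 genes of P450 electron transfer, 2 were higher and 5 lower by sign and 0 passed an adjusted P under 0.05, with a median log2 fold change of -0.18 beside -0.014 over all tested genes. Por, the oxidoreductase that reduces P450 enzymes, had 8317 ± 614 normalized counts in WT and 10083 ± 1747 in MøFoxO1-KO livers (SD, n = 4; log2 fold change 0.28, edgeR adjusted P = 0.374), Cyb5a had a log2 fold change of 0.13, and Pgrmc1, a heme-binding membrane protein that associates with P450 enzymes, had -0.18. Of 12 genes of heme synthesis and breakdown, 9 were higher and 3 lower by sign, and 0 passed. Alad, the second enzyme of heme synthesis, had a log2 fold change of 0.46 and Blvrb, a biliverdin reductase, 0.23, whereas Alas1, the rate-limiting enzyme of heme synthesis in liver, had -0.45 (edgeR adjusted P = 0.178, 0.591 and 0.259, respectively). Of 24 transcription factors, receptors and coregulators of liver P450 genes, 7 were higher and 17 lower, 0 passed, and the median was -0.14. Cebpa, a hepatocyte transcription factor, had a log2 fold change of -0.13, and Ghr, the growth hormone receptor, 0.20. Stat5a and Stat5b, which act downstream of this receptor, had log2 fold changes of -0.79 and -0.31 (edgeR adjusted P = 0.0851 and 0.315), and for both each MøFoxO1-KO mouse was below each WT mouse, as in 4.71% of all tested genes.

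Genes that share a substrate or a place in the liver lobule with Cyp2e1 were divided in direction. Of 9 genes of ethanol and aldehyde oxidation, 3 were higher and 6 lower by sign, 0 passed the adjusted test, and the median was -0.17. The 2 with an unadjusted P under 0.05 by edgeR were both higher, against 8.65% of all tested genes. They were the alcohol dehydrogenases Adh4 (log2 fold change 0.43, edgeR adjusted P = 0.171) and Adh7 (0.54, adjusted P = 0.193). The far more abundant Adh1 had 28017 normalized counts in WT and 23586 in MøFoxO1-KO livers (log2 fold change -0.25, edgeR adjusted P = 0.398). For Adh1 each MøFoxO1-KO mouse was below each WT mouse (4.71% of all tested genes), and for Adh4 each was above (5.0%). Aldh2, which clears acetaldehyde in mitochondria, had a log2 fold change of -0.17, and catalase (Cat), which can oxidize ethanol in peroxisomes, had -0.15. Of 13 pericentral genes, 8 were higher and 5 lower with a median of 0.03, and glutamine synthetase (Glul), made next to the central vein as Cyp2e1 is, had a log2 fold change of -0.04, and Rgn, a calcium-binding protein, 0.47. Of 11 periportal genes, 8 were higher and 3 lower with a median of 0.15, among them Pck1 (-0.04) and Ass1 (0.15). In both zonal lists 0 genes had an adjusted P under 0.05. Among 108 other P450 rows, 64 were tested, and the median was 0.08 beside 0.44 for the 8 genes described here, with 35 higher and 29 lower. Of these 64, 5 had an adjusted P under 0.05 by edgeR, against 0.294% of all tested genes. Cyp7b1 (log2 fold change 2.07) was higher, and Cyp2a4 (-3.35), Cyp2a22 (-2.68), Cyp39a1 (-3.47) and Cyp2c38 (-2.12) were lower in MøFoxO1-KO livers. The abundant Cyp3a11 (-0.41) and Cyp4a14 (-1.43) did not pass.

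Several sets of genes moved with the groups beside Cyp2d9, a gene that is itself more abundant in male liver. The lists were chosen with earlier results of these data known, so their counts are given as a description. Over all tested genes, 48.3% were higher by sign and 0.294% had an adjusted P under 0.05 by edgeR in either direction. Each MøFoxO1-KO mouse was below each WT mouse in 4.71% of them. Of 16 male-biased liver genes, 15 were tested and all 15 were higher by sign, 3 with an adjusted P under 0.05 by edgeR (Hsd3b5, Nudt7 and Cyp7b1), with a median log2 fold change of 2.0, and with 0.02 and 3.53 for Mup20 and Serpina1e, the 2 most abundant. Their summed normalized counts were 60794 to 134942 in WT livers and 127925 to 306786 in MøFoxO1-KO livers, and overlapped. Of 18 female-biased liver genes, 9 were tested and all 9 were lower, 3 with an adjusted P under 0.05 (Cyp2a4, Cyp39a1 and Hao2), with a median of -1.53. Their sums were 3188 to 11874 in WT livers and 1138 to 2729 in MøFoxO1-KO livers, and did not overlap. Markers of macrophages, the cells in which Cre is made, were higher in 9 of 10 cases by sign, with a median of 0.86, or 0.41 without MøFoxO1-KO replicate 29. At an unadjusted P under 0.05 by edgeR 5 were higher, against 8.65% of all tested genes, and 0 had an adjusted P under 0.05. Their sums were 2950 to 5062 in WT livers and 3226 to 14534 in MøFoxO1-KO livers, and overlapped. Log2 fold changes were 0.66 for Clec4f and 1.08 for Cd5l. The macrophage marker that was lower by sign was Lyz2, whose promoter drives Cre (log2 fold change -0.77, edgeR adjusted P = 0.586). It had 712 ± 333 normalized counts in WT and 418 ± 425 in MøFoxO1-KO livers (SD, n = 4), and its groups overlapped. The 9 hepatocyte markers with a row used here were higher in 7 cases and lower in 2 (median 0.19), with Serpina1c (1.49, edgeR adjusted P = 0.037) alone past the adjusted test and Apoa1 at 1.07. Sums of hepatocyte markers were 1068650.2 to 1541661 in WT livers and 1269146 to 1886069 in MøFoxO1-KO livers. Of the remaining marker lists, with 0 genes past the adjusted test, endothelial (6 of 6 higher, median 0.30, Stab2 0.23 and Clec4g 0.49) and T and B cell markers (5 of 5 tested higher, median 0.60, Cd79a 0.60 and Cd79b 0.66) were higher by sign. Cholangiocyte markers were lower (5 of 5, median -0.23, Spp1 -0.23 and Sox9 -0.19), and stellate and fibroblast markers were divided (4 higher, 5 lower, median -0.06, Dcn 0.19 and Reln 0.11). Of the stellate and fibroblast markers, 3 were lower at an unadjusted P under 0.05 by edgeR, against 8.06% of all tested genes, and 0 were higher. These were the collagens Col1a1 (-1.28), Col1a2 (-0.76) and Col3a1 (-0.76). The part of these cell types and gene sets in the Cyp2d values was not tested, and in whole liver fewer cells of a type and less RNA per cell cannot be told apart.

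The genes whose pattern over the 8 mice was nearest to that of Cyp2d9 or Cyp2e1 were found by the root mean square difference of log2 normalized counts, each centred on its own mean, a description over 8 mice that share their scaling. For Cyp2d9 these were Nat9 (0.115), Il1rap (0.121), Serpina1b (0.122), Prdx5 (0.123) and Cmtm8 (0.124), where the median over all tested genes was 0.459 and the SD of Cyp2d9 itself 0.338. Among the genes described here Cyp2d10 was nearest to Cyp2d9, at 0.186 and place 86 of all genes, and Cyp2d22 was farthest, at 0.509. For Cyp2e1 the nearest were Fam53a (0.071), Coq10a (0.071), Sft2d1 (0.073), Sdhaf3 (0.074) and Dhrs11 (0.077), with a median of 0.347 over all tested genes. The SD of Cyp2e1 itself over the 8 mice was 0.182, which is about the distance to a gene with a flat level. Cyp2d26 was the nearest of the Cyp2d genes to Cyp2e1, at 0.165 and place 472, hardly nearer than such a flat gene, and Cyp2d10 at 0.26 was farther.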

How the data were processed

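RNA-Seq of whole liver was read from 4 MøFoxO1-KO mice and 4 WT littermates. Raw counts were deposited as a single table over Ensembl genes with GRCm38 exon coordinates. The submitters' processing notes name STAR, featureCounts and mm10; strand setting and treatment of reads matching several genes are not given in the sources used here, so overlapping and near-identical genes may exchange reads. Symbols came from GENCODE M21 (46005 genes). Genes passing filterByExpr (minimum count 10, minimum total 15; 13278 genes) were tested with edgeR 4.0.16 (TMM, quasi-likelihood F test, Benjamini-Hochberg adjustment, without covariates) in R 4.3.3. Normalized counts were compared by exact two-sided permutation tests over 70 splits (scipy 1.17.1), for which 4 against 4 allow no P under 0.0286. P values set the difference between the genotypes against the spread between these mice, for which edgeR also draws on all tested genes. Total counts (15253218 to 18025481 per mouse) limit precision for genes with few counts. TPM was computed over all rows. Transcript identity was computed from GENCODE M21 with biopython 1.88, and promoters were RefSeq windows of 250 bases before to 50 after the start.

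Alternatives were DESeq2 1.42.0, its size factors, upper-quartile normalization, no filter, limma-voom (limma 3.58.1), a minimum of 10 counts in every mouse, the robust fit, 1 surrogate variable (sva 3.50.0), the adjusted P alone, shares per kilobase and leaving out each mouse. Total-count scaling, overlap by CPM and TPM, ratios within a mouse, counts without Cyp2d11 and the shared promoter run were added after the data were seen. The fit was tested on simulated data.

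The genes described and the gene lists were chosen with earlier results of these data known. Named genes were Foxo1, the 10 symbols, the genes of each list with an adjusted P under 0.05 and its 2 most abundant genes, and the 5 genes nearest to Cyp2d9 and to Cyp2e1. Adh1, Adh4, Adh7, Alas1, Por, Stat5a, Stat5b, Lyz2, Col1a1, Col1a2, Col3a1, Cyp2d37-ps, Cyp2d41-ps, Gm27463 and Nfam1 were named after their values were seen. Cyp2d13 and the hepatocyte marker Tf were not analysed here.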

Additional observations from a re-analysis of the deposited data

Results flagged for a closer look

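In 36 groups of 4 mice examined for a mouse far from the rest, 2 values stood apart by Dixon's criterion (gap to the nearest mouse over the range of the group above 0.829), a criterion that chance meets in about 1 of 20 groups. Cyp2d9 had 49388 normalized counts in MøFoxO1-KO replicate 27, with a gap of 0.888 of the range; without this mouse the Cyp2d9 log2 fold change was 0.51 (edgeR adjusted P = 0.346). Cyp2d40 made up 1.67% of the Cyp2d counts in WT replicate 25, against 1.16, 1.18 and 1.16% in the other WT mice, with a gap of 0.953 of the range; without this mouse the Cyp2d40 log2 fold change was 1.02 (edgeR adjusted P = 0.103).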

How the results depend on the processing

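None of the genes described here was called under any alternative run. The count of called genes over the whole table, 25, was 144 with DESeq2, 120 with no filter on low counts, 13 with limma-voom and 39 with the adjusted P alone, and lay between 3 and 82 when each mouse was left out in turn; the cause was not tested. With the DESeq2 size factors, upper-quartile normalization, at least 10 counts in every mouse, the robust fit, 1 surrogate variable or total-count scaling it lay between 18 and 32. Across 17 alternatives (16 for Cyp2d11, not tested at 10 counts in every mouse), log2 fold changes kept a positive sign for Cyp2d9 (0.44 to 0.65), Cyp2d10 (0.45 to 0.68), Cyp2d11 (1.26 to 1.54), Cyp2d40 (0.58 to 1.02), Cyp2d12 (0.06 to 0.85) and Cyp2d26 (0.07 to 0.31). TPM is not among these alternatives, and ratios of MøFoxO1-KO to WT mean TPM were 0.983 for Cyp2d12 and 0.945 for Cyp2d26. Cyp2e1 (-0.04 to 0.24) turned negative with total-count scaling, and Cyp2d22 (-0.16 to 0.29) kept its sign in 7 of 17. Adjusted P values ranged from 0.00332 to 0.346 for Cyp2d9, from 0.000368 to 0.314 for Cyp2d10 and from 0.0409 to 0.411 for Cyp2d40, and were under 0.05 with DESeq2 alone. With total-count scaling, 15.1% of genes at an unadjusted P under 0.05 were higher in MøFoxO1-KO livers (442 higher, 2480 lower), against 51.8% with TMM (1149 higher, 1070 lower). Per kilobase, the share of Cyp2d22 was 6.63 and 4.76% and that of Cyp2d40 1.91 and 2.36% in WT and MøFoxO1-KO livers. Leaving out single mice moved the medians of macrophage markers (0.41 without MøFoxO1-KO replicate 29, to 1.12), endothelial markers (0.10 to 0.45), cholangiocyte markers (-0.45 to -0.22) and T and B cell markers (0.21 to 0.92), and turned the sign of those of other P450 genes (-0.12 to 0.13), ethanol and aldehyde oxidation (-0.28 to 0.02), pericentral (-0.01 to 0.25), periportal (-0.04 to 0.37) and stellate genes (-0.29 to 0.07). No paired analysis was possible because the groups share no replicate number. Cyp2d11, Cyp2d12 and Cyp2d34 had at most 43 counts in any mouse, which limits what depth can show for them.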

Other observations

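Gm27463, a row of 57 bases on chromosome 15 from 82641945 to 82642001, lies inside the RefSeq model of Cyp2d13 on GRCm38 (82636750 to 82642045), a transcribed pseudogene that was matched to no row by its symbol. It was counted 297, 290, 241 and 257 times in the WT mice (replicates 22 to 25) and 423, 280, 554 and 204 times in the MøFoxO1-KO mice (replicates 26 to 29). Its groups overlapped, and edgeR gave a log2 fold change of 0.52 ± 0.22 (standard error) at an adjusted P of 0.278. Within the MøFoxO1-KO mice, replicates 26 and 28 were high and replicates 27 and 29 low for Gm27463, as they were for Cyp2d22 (9849, 5344, 10155 and 3882 counts) and for Foxo1 (448, 253, 438 and 259 counts). These counts were not normalized, and library sizes were also larger in replicates 26 and 28. They were 18006955, 15236696, 17180340 and 15659452 counts of tested genes in replicates 26 to 29. Cyp2d22 kept the order in normalized counts (9421, 6369, 9617 and 4337). The order was noticed after the values were seen, and the part of sequencing depth in it was not tested.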
